A study of Homo sapiens with 6 samples.

Results

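The miRNAs described here were 10 mature human miRNAs that mark stromal and blood lineages, out of 2555 human miRNAs with a probe on the array. They were chosen by name for the lineage that each marks. The mesenchymal group held 5 of them (hsa-miR-143-3p, hsa-miR-145-5p, hsa-miR-199a-3p, hsa-miR-199a-5p and hsa-miR-214-3p), the endothelial group held 1 (hsa-miR-126-3p) and the blood group held 4 (hsa-miR-142-3p, hsa-miR-223-3p, hsa-miR-150-5p and hsa-miR-451a). The prefix hsa is left out from here on. Expression was measured in HuccT1, an established human cholangiocarcinoma (CCA) cell line, on 6 single-colour (Cy5) 3D-Gene miRNA arrays, 3 of control cells given 0 ng/ml TGF-β and 3 of cells given 10 ng/ml TGF-β, all for 72 h. The comparison addressed whether TGF-β, a cytokine that induces epithelial-mesenchymal transition (EMT), switched on the mesenchymal miRNAs in these epithelial tumor cells. The labels do not say whether the 3 arrays of a group came from separate cultures, so p-values measure the spread between arrays, which may be technical.

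MiRNAs repress mRNAs that pair with their seed, the bases near the 5′ end. MiR-143 and miR-145 are made from a shared locus and are known from smooth muscle cells and fibroblasts, and miR-199a and miR-214 share the DNM3OS transcript of mesenchymal cells. MiR-126 lies in EGFL7 and is known from endothelial cells, miR-142 from all blood lineages, miR-223 from myeloid cells, miR-150 from mature lymphocytes and miR-451a from red cells. In a pure culture of tumor cells these miRNAs serve as markers of other cell types, and the mesenchymal ones also as markers of a mesenchymal state.

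The mature sequences are shown because the probes were designed on them and because the seed (bases 2 to 8, in capitals) shows which of these miRNAs could share targets. RefSeq (GRCh38.p14) held 8 of the 10, printed 5′ to 3′.
miR-143-3p: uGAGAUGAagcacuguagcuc
miR-145-5p: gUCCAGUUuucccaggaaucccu
miR-199a-3p: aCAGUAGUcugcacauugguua
miR-199a-5p: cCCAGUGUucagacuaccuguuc
miR-214-3p: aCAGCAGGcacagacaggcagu
miR-126-3p: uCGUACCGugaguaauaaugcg
miR-142-3p: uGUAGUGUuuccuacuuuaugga
miR-223-3p: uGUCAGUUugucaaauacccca

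These 8 miRNAs carried 8 distinct seeds, so no pair of them shared one. The hairpins MIR143 (chr5:149428918-149429023) and MIR145 (chr5:149430646-149430733) lay on the plus strand within the noncoding gene CARMN, with 1622 bases between them. On the minus strand of chromosome 1, MIR199A2 (chr1:172144535-172144644) and MIR214 (chr1:172138798-172138907) lay 5627 bases apart within DNM3OS, inside the bounds of DNM3. The same mature miR-199a arms are also made from MIR199A1 (chr19:10817426-10817496) within DNM2, and the array probe for miR-199a-3p is also named for miR-199b-3p, so those loci could not be told apart. MIR126 lay within EGFL7 (chr9:136670602-136670686), MIR142 within MIR142HG (chr17:58331232-58331318) and MIR223 within MIR223HG (chrX:66018870-66018979).

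Detection was decided from the 229 spots named BLANK on each array. A miRNA was called detected on an array when its brightness exceeded the mean of those spots by 2 SD, a limit that lay between 33.1 and 97.6 brightness units on the 6 arrays. Each probe has 1 spot. By this limit the control arrays held 464, 329 and 384 detected human miRNAs and the TGF-β arrays 327, 434 and 330. The chip of an array was read from the code in the name of its scan. By that code, control arrays 1 to 3 and TGF-β array 1 lay on 1 chip and TGF-β arrays 2 and 3 on another. Chip and treatment were thus partly confounded. Of the blank spots themselves, 3.13% exceeded the limit. Most human probes, 74.5% to 82.6% per array, were dimmer than the mean of the blank spots, so a miRNA below the limit has no measured level here, and a low amount of it cannot be told apart from none.

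The lineage miRNAs were almost entirely undetected in both groups. Of their 30 signals in control cells, 0 passed the limit, and of their 30 signals in TGF-β-treated cells, 1 did. That signal was miR-223-3p on TGF-β array 3. The other 9 miRNAs were detected on no array, and none of the 10 was detected on all 3 arrays of a group. Over all human probes, 508 of 2555 (19.9%) were detected on at least 1 array and 27 (1.06%) on a TGF-β array but on no control array, against 61 (2.39%) on a control array but on no TGF-β array. The number of lineage miRNAs detected per array was 0.0 ± 0.0 in control and 0.333 ± 0.577 with TGF-β (SD, n = 3; 2-sided exact permutation p = 1.0, with 0.1 the lowest p possible for 3 arrays against 3). Of the 60 signals, 56 lay below the mean of the blank spots, and apart from the detected one none came within 1 SD of the limit.

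**Figure D1:**
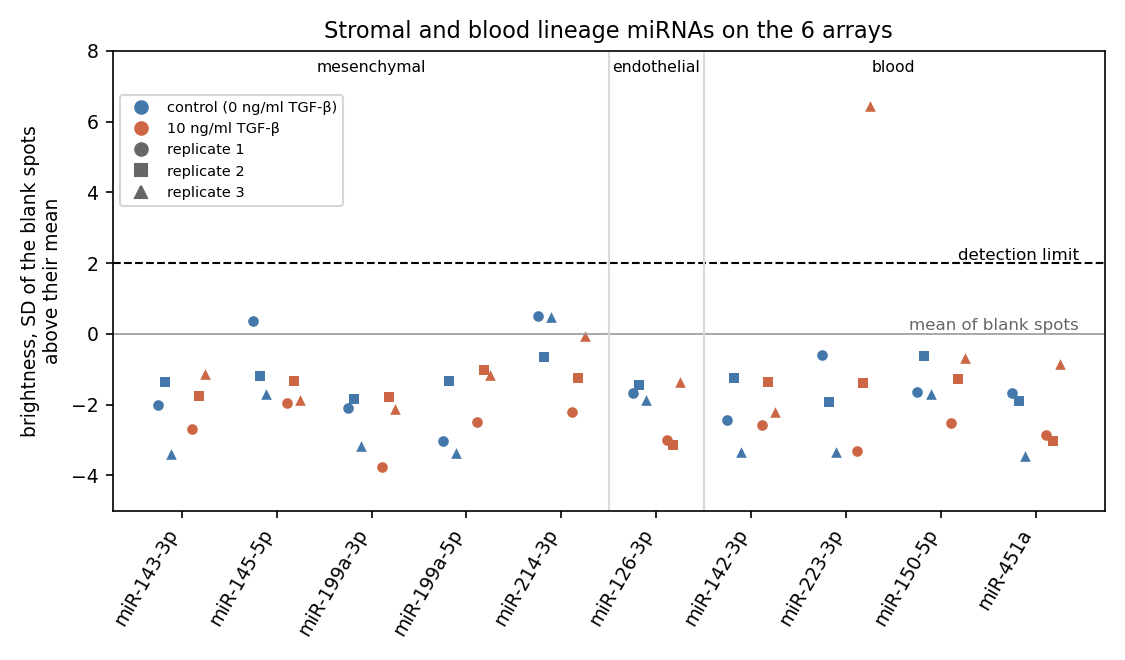
Brightness of the 10 lineage miRNAs on the 6 arrays, as the distance from the mean of the blank spots of the same array in units of their SD (vertical axis). Blue marks control arrays and orange TGF-β arrays, symbols give the replicate number, and the dashed line at 2 SD is the detection limit, which only miR-223-3p on TGF-β array 3 passed.

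The mesenchymal miRNAs were not switched on by TGF-β to a level that the arrays could detect. They gave 0 detections in 15 signals of control cells and 0 in 15 of treated cells, and 27 of the 30 signals were below the mean of the blank spots. Nor did any other human probe go from undetected on every control array to detected on all 3 TGF-β arrays (0 of 2555, 0.0%). In the values that follow, brightness is given in SD of the blank spots of its own array, with 0 at their mean and negative values below it. The median human probe had a brightness of 27.8, 46.0 and 24.3 on control arrays 1 to 3, against blank means of 30.7, 54.8 and 29.5. On TGF-β arrays 1 to 3 it had 63.0, 67.0 and 36.4 against 82.3, 76.2 and 42.5. The blank SD was 1.79, 6.81 and 1.78 in control and 7.63, 4.89 and 3.98 with TGF-β. Such differences between arrays enter each value and its permutation p.

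MiR-143-3p, which represses regulators of smooth muscle proliferation, lay at -2.0, -1.37 and -3.39 SD on control arrays 1, 2 and 3 and at -2.69, -1.75 and -1.14 SD on TGF-β arrays 1, 2 and 3. Its partner miR-145-5p, which promotes the contractile smooth muscle state, lay at 0.36, -1.20 and -1.70 SD in control and at -1.94, -1.32 and -1.87 SD with TGF-β. Both sets of values overlapped between the groups, with an exact permutation p of 0.6 for miR-143-3p and 0.2 for miR-145-5p. The neighbours of the CARMN locus were thus below the limit on all 6 arrays.

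MiR-199a-5p is made from the same hairpins as miR-199a-3p. It lay at -3.03, -1.34 and -3.36 SD in control and at -2.50, -1.02 and -1.16 SD with TGF-β. MiR-199a-3p lay at -2.09, -1.83 and -3.16 SD in control and at -3.76, -1.78 and -2.11 SD with TGF-β, and the -3.76 SD was the lowest of all 60 signals. The groups overlapped for both arms (exact permutation p = 0.2 for miR-199a-5p and 0.8 for miR-199a-3p).

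MiR-214-3p, the partner of miR-199a in DNM3OS, had the mesenchymal signals that came nearest to the limit. Its values were 0.50, -0.64 and 0.47 SD in control and -2.21, -1.24 and -0.047 SD with TGF-β, a group mean of 0.11 ± 0.65 SD against -1.17 ± 1.08 SD (SD, n = 3). The 2 highest values were from control cells, but the groups overlapped (exact permutation p = 0.2). Within each of the 3 pairs of arrays with the same replicate number, the value was lower with TGF-β, as it also was for miR-145-5p. The share of all human probes that were lower in all 3 pairs was not counted on this scale, so these 2 cases have no background to be set against. With log2 brightness centred on the median human probe of each array, miR-145-5p was higher with TGF-β in pair 2 (difference 0.037). On that scale miR-214-3p was lower in all 3 pairs, as were 301 of 2551 human probes (11.8%). The brightness of miR-214-3p ranked between the 61.6 and the 82.0 percentile of all human probes. The middle percentile over the 30 mesenchymal signals was 52.7 and that over all 60 lineage signals 49.8.

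The endothelial miR-126-3p, which supports vascular integrity, lay at -1.68, -1.44 and -1.88 SD in control and at -3.00, -3.14 and -1.36 SD with TGF-β. All 6 values were below the mean of the blank spots, and the groups overlapped (exact permutation p = 0.4).

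Among the blood miRNAs, miR-142-3p, which is found across the haematopoietic lineages, lay at -2.43, -1.25 and -3.35 SD in control and at -2.57, -1.37 and -2.22 SD with TGF-β. The lymphocyte miRNA miR-150-5p lay at -1.64, -0.62 and -1.71 SD in control and at -2.52, -1.28 and -0.68 SD with TGF-β. The erythroid miR-451a, which is processed by AGO2 without Dicer, lay at -1.67, -1.90 and -3.44 SD in control and at -2.87, -3.02 and -0.85 SD with TGF-β. No value of these 3 miRNAs reached the mean of the blank spots and the groups overlapped for each, with exact permutation p of 0.8, 0.9 and 1.0 in that order.

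MiR-223-3p, a regulator of myeloid differentiation, lay at -0.60, -1.92 and -3.34 SD in control and at -3.31, -1.40 and 6.44 SD with TGF-β. It was thus above the limit on 1 array and below the mean of the blank spots on the other 5, and the groups overlapped (exact permutation p = 0.6). On TGF-β array 3 the spot had a brightness of 68.2, against a brightness of 36.4 for the median human probe, and a local background of 46.4. This local background was higher than that of 89.4% of human probes on that array, where the median local background was 65.8 beside detected probes and 29.1 beside undetected ones. The spot passed the scanner's flags at all 3 gains. The adjacent spots in its block were miR-224-5p, which was detected on all 6 arrays and had a brightness of 57.6 here, and miR-595 and miR-596, which were not detected at 35.2 and 34.3. Detection on exactly 1 of the 6 arrays was seen for 69 of 2555 human miRNAs (2.7%), of which 33 were on control array 1, 20 on TGF-β array 2 and 2 on TGF-β array 3. Whether the spot or the cells gave this signal was not tested.

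Since 9 of the 10 miRNAs had no detected signal and miR-223-3p had 1, none entered the comparison of the 323 expressed miRNAs, those detected on all 3 arrays of a group. In that comparison 0 of 323 miRNAs (0.0%) passed an adjusted p of 0.05 with limma, and 21 had an unadjusted p under 0.05. To give the undetected miRNAs a value, limma was also run on log2 spot brightness of all 2555 probes, centred on the median human probe of each array, without background subtraction. Brightness at this level is mostly background, so a change in it is not a fold change of the miRNA. In this comparison 0 of 2555 probes (0.0%) passed, 78 had an unadjusted p under 0.05, and all 10 lineage miRNAs had an adjusted p of 0.99996 (limma, Benjamini-Hochberg).

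The log2 change in brightness with TGF-β was positive for 5 of the 10 and negative for 5, with a median of -0.0053 beside -0.0092 over all probes. Among the mesenchymal miRNAs the change was 0.05 (95% confidence interval -0.09 to 0.18) for miR-143-3p, -0.07 (-0.23 to 0.08) for miR-145-5p and -0.04 (-0.21 to 0.12) for miR-199a-3p. It was 0.11 (-0.03 to 0.26) for miR-199a-5p and -0.10 (-0.27 to 0.07) for miR-214-3p, so every mesenchymal interval included 0. MiR-199a-5p was the only lineage miRNA whose groups did not overlap on this scale. Its centred log2 brightness was -0.14, -0.0093 and -0.043 in control and 0.0049, 0.088 and 0.057 with TGF-β, and 69 of 2551 human probes (2.7%) showed no overlap in that direction, against 109 (4.27%) in the other.

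Between arrays with the same replicate number, centred log2 brightness with TGF-β was lower in all 3 pairs for miR-214-3p and miR-126-3p and higher in all 3 for miR-143-3p and miR-199a-5p. Over all probes, 301 of 2551 (11.8%) were lower and 221 (8.66%) higher in all 3 pairs. The differences were -0.13, -0.068 and -0.11 for miR-214-3p and 0.14, 0.097 and 0.10 for miR-199a-5p. These 2 miRNAs had the same direction in all 3 pairs in SD of the blank spots too, where the share of all probes was not counted. With the replicate number as a block, the log2 change was -0.10 (95% confidence interval -0.26 to 0.06) for miR-214-3p and 0.11 (-0.04 to 0.27) for miR-199a-5p, and the adjusted p of all 10 remained 0.99996 (limma).

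**Figure D2:**
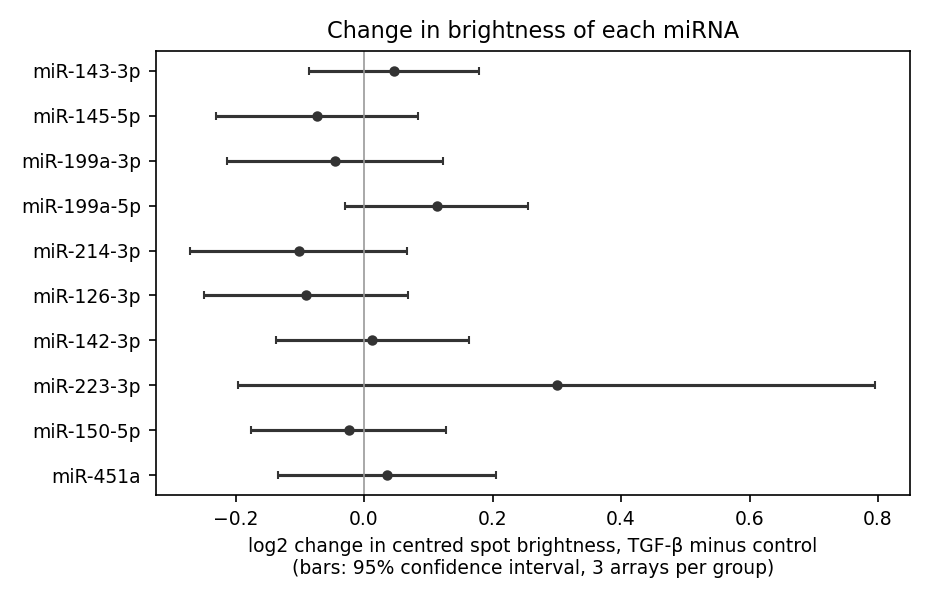
Log2 change in spot brightness (TGF-β minus control, centred on the median human probe of each array) for each lineage miRNA. Points are limma estimates from 3 arrays per group and bars are 95% confidence intervals, all of which include 0 and of which that of miR-223-3p is the widest.

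Outside the mesenchymal group, the change was -0.09 (-0.25 to 0.07) for miR-126-3p, 0.01 (-0.14 to 0.16) for miR-142-3p, -0.02 (-0.18 to 0.13) for miR-150-5p and 0.04 (-0.13 to 0.21) for miR-451a. For miR-223-3p it was 0.30 (-0.20 to 0.80). The last value rested on TGF-β array 3 and was -0.017 without it. Within the chip that held both groups, it was -0.11, which rests on TGF-β array 1 as the only TGF-β array there.

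The limit from the blank spots decided which lineage miRNAs counted as undetected, so other limits were tried. With 3 SD, with trimmed blank spots, with the brightest blank spot, with the local background of each spot or with the authors' own list of detected miRNAs, the only detection was again miR-223-3p on TGF-β array 3. Lower limits were set after the data were seen, from the dimmer control spots. With the spots named No Probe, miR-214-3p was also detected on control arrays 1 and 3. With the spots named Negative Control, 6 control signals passed, those of miR-145-5p and miR-214-3p on arrays 1 and 3 and of miR-126-3p and miR-150-5p on array 3. Of all human signals, 18.7% passed with the No Probe limit and 24.8% with the Negative Control limit, against 14.8% with the reported one. With each of these limits, 0 mesenchymal miRNAs were detected with TGF-β and on no control array.

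Among the undetected miRNAs, brightness varied with the base composition of the mature sequence. Over 1799 human miRNAs detected on no array with a known sequence, the share of G and C bases correlated with the median brightness by a Spearman rho of 0.41 (0.22 to 0.38 on single arrays), a description across probes that share arrays and are not independent replicates. The share was 59.1% for miR-214-3p and 34.8% for miR-142-3p, the highest and lowest of the 8 sequences, and 50% for the median undetected miRNA. What base composition contributed to the brightness of miR-214-3p was not tested.

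**Figure D3:**
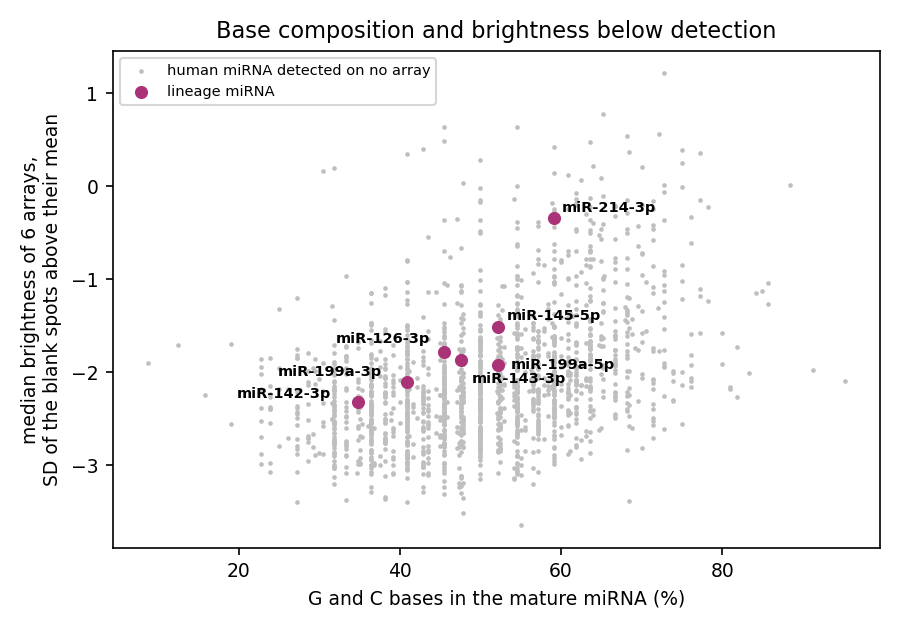
Share of G and C bases in the mature miRNA (horizontal axis, percent) against the median brightness over the 6 arrays (vertical axis, distance from the blank mean in SD of the blank spots) for 1799 undetected human miRNAs in grey and the 7 lineage miRNAs among them in purple. MiR-214-3p, at 59.1%, lies above the other 6, and miR-142-3p, at 34.8%, lies lowest.

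The other arms and cluster partners of these miRNAs were undetected too. They comprised 11 probes (the second arms of miR-143, miR-145, miR-214, miR-126, miR-142, miR-223 and miR-150, with miR-199b-5p, both arms of miR-144 and miR-451b), and 0 of their 65 signals passed the limit. The signal of miR-451b on TGF-β array 2 was left out because the scanner had flagged the spot. The brightest was miR-150-3p on control array 1 at 1.53 SD, which the authors' table lists at a normalized value of 3.80. MiR-223-5p, which comes from the same hairpin as miR-223-3p, was not detected on TGF-β array 3 or on any other array.

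Human miRNAs with the same seed as a lineage miRNA were looked for on the array. MiR-145-5p, miR-199a-5p, miR-126-3p, miR-142-3p and miR-223-3p had none. The single relative of miR-199a-3p (miR-3129-5p) and both relatives of miR-214-3p (miR-3619-5p and miR-761) were detected on no array. MiR-143-3p had 2, which are printed with the shared seed in capitals.
miR-143-3p: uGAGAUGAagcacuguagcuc
miR-4770: uGAGAUGAcacuguagcu
miR-6088: aGAGAUGAagcgggggggcg
MiR-4770 was detected on 0 arrays. MiR-6088 was detected on all 6, at 5.89 to 20.6 SD, while miR-143-3p, which has the same seed, was not detected. The printed sequence of miR-6088 is rich in G, and what base composition contributed to its brightness was not tested.

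The arrays did detect miRNAs of the epithelial lineage that HuccT1 belongs to. Of 7 epithelial probes, 6 passed the limit on at least 1 array and 5 of them did so on all 6 (miR-205-5p, miR-141-3p and the 3p arms of miR-200a, miR-200b and miR-200c), with 18 of 21 control signals and 17 of 21 TGF-β signals detected. MiR-429 was detected on every array but TGF-β array 1, and miR-203a on none. Of 6 miRNAs of liver, muscle and neurons, miR-9-5p was detected on control array 1 at 3.03 SD, and the other 5 on no array.

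**Figure D4:**
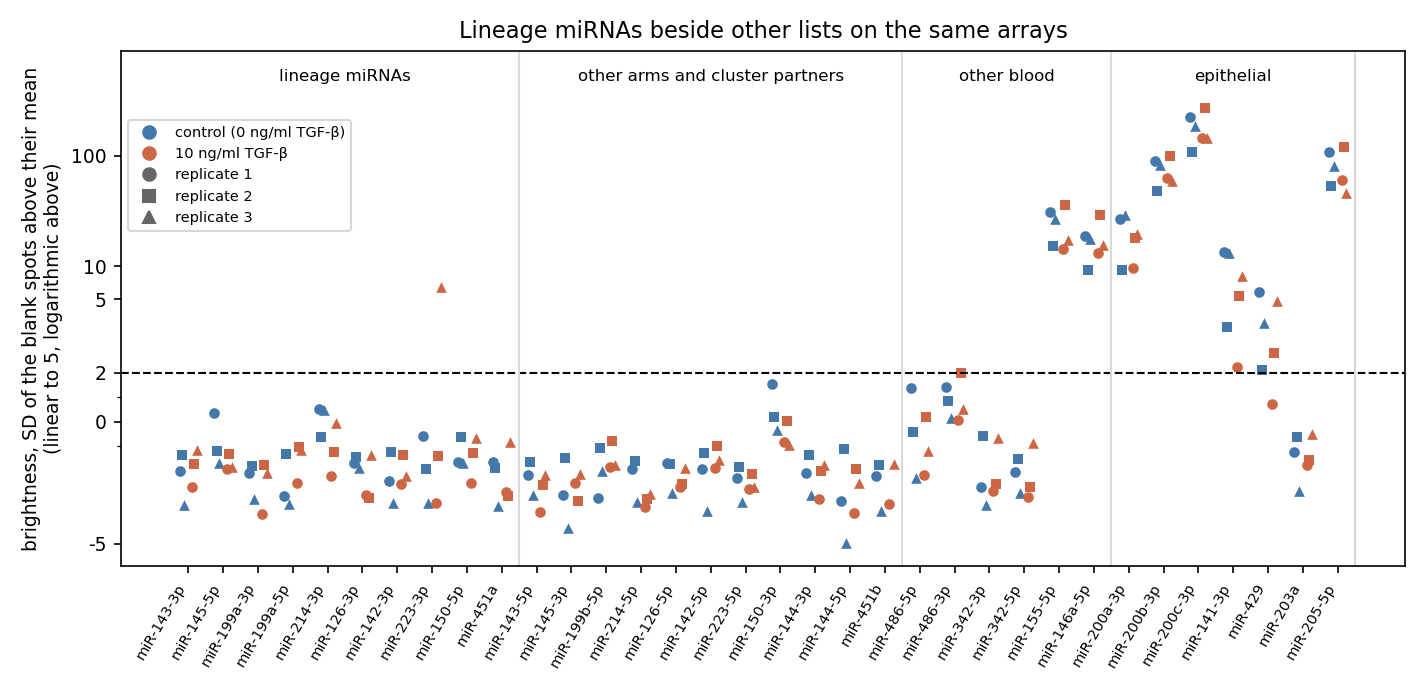
Brightness on the 6 arrays, as the distance from the blank mean in SD (vertical axis, linear to 5 SD and logarithmic above), of the lineage miRNAs, the other arms and cluster partners of their loci, other blood miRNAs and epithelial miRNAs. Above the dashed detection limit of 2 SD lie 6 of the 7 epithelial miRNAs, miR-155-5p, miR-146a-5p and the single signal of miR-223-3p. Of these epithelial miRNAs, miR-429 lies below the limit on TGF-β array 1.

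Of 6 further miRNAs known from blood cells, 4 (both arms of miR-486 and of miR-342) were detected on no array, the brightest being miR-486-3p at 1.97 SD on TGF-β array 2. The other 2, miR-155-5p and miR-146a-5p, which are induced in activated immune cells and also made by epithelial cells, were detected on all 6. On the scale on which the median of the 292 miRNAs detected on all arrays is 25, the normalized signal of miR-155-5p was 28.1, 32.4 and 27.9 in control and 26.4, 37.0 and 33.4 with TGF-β (29.5 ± 2.56 against 32.3 ± 5.39, SD, n = 3; exact permutation p = 0.6). That of miR-146a-5p was 17.2, 19.7 and 18.4 in control and 24.2, 30.3 and 29.8 with TGF-β (18.4 ± 1.23 against 28.1 ± 3.40), a ratio of 1.52. Its groups did not overlap in that direction, as for 23 of 322 miRNAs (7.14%), and the exact permutation p was 0.1, the smallest possible. The log2 change of miR-146a-5p was 0.60 (SE 0.19) and did not pass the adjustment (limma, adjusted p = 0.46 over 323 miRNAs). The 24.2 came from TGF-β array 1, on the chip of the controls, and the 30.3 and 29.8 from the other chip. With the chip as a block the log2 change was 0.39. In the authors' normalized values the groups overlapped and the ratio was 1.30.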

How the data were processed

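MiRNA levels in 6 HuccT1 samples were measured on 3D-Gene Human miRNA Oligo chips. The authors deposited the intensity of each spot as the median brightness of its pixels, with the local background, unnormalized and on a linear scale (3D-Gene Extraction software, version not given in the sources used here). They also deposited a table of normalized intensity values with a median of 25 per array, in which undetected miRNAs are empty. Groups and replicate numbers came from the labels.

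The detection limit of an array was the mean plus 2 SD of its 229 BLANK spots. For normalized signals that mean was subtracted, arrays were scaled to a median of 25 over the 292 probes that all 6 arrays detected, signals below detection were set to the array's lowest detected signal and log2 was taken. Groups were compared with limma 3.58.1 in R 4.3.3 (no block, Benjamini-Hochberg, threshold 0.05), over miRNAs detected on all 3 arrays of a group. They were also compared by 2-sided exact permutation tests, computed in Python 3.11.15. Spearman correlations were computed with scipy 1.17.1. The limma step was tested on simulated data. The fit on centred log2 brightness and the limits from No Probe and Negative Control spots were added after the data were seen.

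Named miRNAs are the 10 chosen, those detected from the lists of their loci, other blood cells and other tissues, the miRNAs that share a seed, and a few undetected ones chosen after their values were seen. The most similar miRNAs were to be named for each of the 10 detected on all 6 arrays, and there was none. The 10 miRNAs and the lists were chosen with earlier results of these data known. After subtraction of the group means, arrays that share a replicate number correlated by 0.12, 0.24 and 0.33 over 322 miRNAs. All were above 0.1, the bar set for treating the numbers as pairs, but control array 1 correlated more with TGF-β array 2 (0.44) than with TGF-β array 1. What a number marks is not stated. Alternatives were other limits, background corrections, scalings, filters, blocks for replicate and chip, the first chip alone, the methods' t-test and leaving out each array. Array values carry no sequencing depth, and the number of arrays limits their precision.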

Additional observations from a re-analysis of the deposited data

How the results depend on the processing

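Under every detection limit tried and on leaving out each array, 0 mesenchymal miRNAs were detected with TGF-β and on no control array and 0 lineage miRNAs were detected on all 3 arrays of a group. In every comparison of brightness 0 of the 10 passed the adjusted p. The detections in control cells rose from 0 to 2 with the limit from No Probe spots and to 6 with that from Negative Control spots, and the lineage miRNAs detected on at least 1 array from 1 to 2 and 5. The share of all human signals that passed rose from 14.8% to 18.7% and 24.8%. Leaving out each array gave 0 to 1 detections with TGF-β and 0 to 1 detected miRNAs, both 0 without TGF-β array 3. The comparison of normalized signals took in 1 lineage miRNA, miR-223-3p, when detection on 1 array sufficed, and 10 with no filter, 9 of which sit at the lowest detected signals in both groups. Over all miRNAs in that comparison, the calls were 1 with the methods' t-test, 0 to 1 on leaving out each array and 0 with the replicate block. Over all probes in the comparison of brightness, the calls were 2 with the replicate block, 2 with the chip as a block, 2 on the first chip alone, 1 with quantile normalization, 9 when centred on the blank spots and 0 to 6 on leaving out each array, 6 of them without TGF-β array 3. With the replicate block 0 lineage miRNAs passed the adjusted p for brightness, and none was tested in the normalized signals.

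Several brightness changes turned sign. The 95% interval excluded 0 for miR-143-3p with normexp (log2 change 0.08, limma adjusted p = 0.99) and for miR-223-3p without TGF-β array 1 (0.51, limma adjusted p = 0.95). With normexp the log2 change was 0.041 for miR-199a-3p, 0.0013 for miR-214-3p and -0.043 for miR-142-3p. Centred on the blank spots it was -0.025 for miR-142-3p and -0.0023 for miR-451a. With the chip as a block or the first chip alone, where TGF-β array 1 is the only treated one, it was -0.11 for miR-223-3p. Leaving out each array gave -0.10 to 0.018 for miR-199a-3p, -0.024 to 0.059 for miR-142-3p (-0.0074 without control array 1), -0.017 to 0.51 for miR-223-3p, -0.069 to 0.0075 for miR-150-5p (0.0012 without control array 2) and -0.030 to 0.085 for miR-451a. The causes were not tested. MiR-143-3p, miR-145-5p, miR-199a-5p and miR-126-3p kept their sign in all 12 other settings. For miR-155-5p the log2 signal change was -0.14 in the authors' values, -0.093 when every array was scaled to all probes detected on it and -0.15 with the chip as a block or the first chip alone. The first 2 of these scalings put the median of all tested miRNAs at -0.27 and -0.20, and scaling to the 75th percentile put it at -0.10, against 0.013 in the reported comparison. MiR-146a-5p stayed positive in all 19, from 0.16 to 2.83, with limma or t-test adjusted p from 0.27 to 0.99925.

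With 3 arrays a group, 1 spot a probe and a limit above most human probes, a low level of a lineage miRNA could not be seen.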
